A study of Mus musculus with 6 samples.

Results

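The genes described here are 39 genes of autophagy, mitophagy and the lysosome, taken by symbol from a table of 54532 genes measured by messenger RNA sequencing of mouse hearts. All 39 symbols were found, each in 1 row. Hearts of mice with conditional knockout of Ythdc1 (Ythdc1-CKO, called CKO here, 3 libraries) were compared with hearts of Ythdc1flox/flox mice (flox control, 3 libraries). The protein YTHDC1 sits in the nucleus and binds messenger RNA at N6-methyladenosine, a modified base. Per the labels, both groups received normal chow for 15 days and each library was an independent biological replicate. The labels do not give the Cre driver, the cells in which the alleles were deleted, the age or the sex of the animals. Values are FPKM, fragments scaled by gene length and by a library total, so levels can be compared between genes within a library. The FPKM sum differed between libraries, as given below, so comparisons between libraries depend in part on the scaling.

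Autophagy encloses cytoplasm in a double membrane and delivers it to the lysosome. A kinase complex around ULK1 starts the process, a lipid kinase complex around Beclin 1 marks the membrane, and linked conjugation systems attach proteins of the ATG8 family to it. Cargo receptors such as p62 tie their load to ATG8 proteins, and mitophagy receptors do so for mitochondria. Lysosomal enzymes then break the contents down, and the transcription factors TFEB and TFE3 are known to switch on many autophagy and lysosome genes by binding a DNA element called CLEAR. In heart muscle, whose cells are rarely replaced, the pathway is known for removing damaged proteins and mitochondria.

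The libraries held between 17434296 and 19360428 reads assigned to genes, recovered from the deposited values. The knocked-out gene, Ythdc1, measured 2.39, 2.57 and 2.34 FPKM in CKO 1, 2 and 3, against 4.31, 3.64 and 4.10 FPKM in flox controls 1, 2 and 3 (log2 fold change -0.54, SE 0.09, limma adjusted p = 0.015). Every CKO library lay below every control. By exact permutation of the libraries (two-sided) p was 0.1, and no smaller p is possible with 3 per group. The Ythdc1 call was lost without CKO 3 (limma adjusted p = 0.0535), flox control 1 (0.0707) or flox control 3 (0.0637). The sum of FPKM over all genes was lowest in CKO 2 (351431) and highest in CKO 3 (461435). CKO 3 also held 4037 Xist reads, against at most 5 in any other library, so 1 library had female and 5 had male sex-linked expression. Macrophage and monocyte markers stood apart in CKO 1, as described below.

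The CLEAR element was looked for first, because TFEB and TFE3 are known to act on many autophagy and lysosome genes through it. RefSeq promoter windows of GRCm38.p6 were found for 32 of the 39 genes, 37 windows in all, and the 250 bases before each start site were searched on both strands. The 8-base core TCACGTGA, which always contains the 6-base E-box CACGTG, occurred in windows of Atg3, Ctsa, Ctsd and Gla. The Ctsa match precedes an alternative start site 900 bases inside the gene as GENCODE M21 bounds it, and the Ctsd start site lies 211 bases inside that gene. The Atg3 and Gla start sites lie 44 and 120 bases inside their genes, and just as far from the nearest GENCODE M21 transcript start. These are the 5 matches, written 5′ to 3′ on the gene's strand with the core in capitals and 10 bases on each side.
Atg3, chr16:45158747-45158774, plus strand: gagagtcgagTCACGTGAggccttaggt
Ctsa, chr2:164833750-164833777, plus strand: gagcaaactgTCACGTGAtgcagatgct
Ctsd, chr7:142387909-142387936, minus strand: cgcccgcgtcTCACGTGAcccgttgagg
Gla, upstream match, chrX:134601216-134601243, minus strand: aagcgattgaTCACGTGAgcatctacgt
Gla, downstream match, chrX:134601183-134601210, minus strand: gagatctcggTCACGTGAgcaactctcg

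The core was present in 4 of the 37 windows (10.8%), against 0.785% of all 32851 RefSeq windows and 1.56% of the 11287 windows of genes tested here. The genes were chosen by function, and the element is already known from autophagy and lysosome genes. The shares therefore do not bear on the knockout. The shorter E-box occurred in 10 windows (27.0%), against 6.02% of all windows and 8.35% of those of tested genes. Those 10 belonged to Atg3, Atg5, Atg7, Bnip3, Ctsa, Ctsd, Ctsl, Gaa, Gla and Lamp1. The RefSeq start sites of Ctsl and Atg7 were inside the gene and away from every transcript start of GENCODE M21. Their windows are counted in these shares but are not shown. Lamp1 had 4 E-boxes within 80 bases and Atg3 had a second E-box beside its CLEAR match, shown here with E-boxes and the CLEAR core in capitals.
Lamp1, chr8:13159081-13159160, plus strand: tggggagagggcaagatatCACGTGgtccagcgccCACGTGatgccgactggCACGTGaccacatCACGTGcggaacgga
Atg3, chr16:45158707-45158784, plus strand: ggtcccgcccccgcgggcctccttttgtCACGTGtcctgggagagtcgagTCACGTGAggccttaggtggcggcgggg

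No other motif searched had a larger share in these windows than the E-box. The core TGACNNNGC, bound by NRF2 with small MAF proteins, was found in 4 windows (10.8%), against 11.9% of those of tested genes. The composite C/EBP and ATF4 element TGATGNAA was found in 1 window, the Ctsl window away from any GENCODE start, against 1.99% of those of tested genes. The FoxO element GTAAACA was found in none, against 2.12% of those of tested genes. A match is a run of letters, and binding was not measured here.

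Among the 39 genes, 3 rose in CKO hearts and none fell. The 3 were Ctsl, which encodes the lysosomal cysteine protease cathepsin L, Ctsa, which encodes the lysosomal carboxypeptidase cathepsin A, and Atg3, which encodes the enzyme that joins ATG8 proteins to phosphatidylethanolamine. Of the 39, 38 passed the filter of a mean of at least 1 FPKM, and 35 of those did not pass the test. Over all 12144 genes tested, limma on log2(FPKM + 1) called 11.2% at a Benjamini-Hochberg adjusted p under 0.05, with 5.69% called higher and 5.49% called lower. The 3 of 38 (7.89%) are near that background. At an unadjusted limma p under 0.05, 12 members were higher and 0 lower, against 14.0% higher and 13.8% lower over all tested genes. Limma voom on recovered reads called 5 higher and 0 lower, against 5.98% and 6.44% over all tested genes. All log2 fold changes below are CKO minus flox control on the log2(FPKM + 1) scale, which understates the change of low genes.

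Every CKO library lay above every flox control library in 11 of the 39 genes, and in no gene did every CKO library lie below. All 11 were among the 38 tested (28.9%). Over all tested genes, 16.9% had every CKO library above and 17.4% every CKO library below. The median log2 fold change was 0.14 over the 38 members and 0.01 over all tested genes, and 28 members had positive and 10 negative values. These are whole hearts, so fewer cells of a type and less RNA per cell cannot be told apart.

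**Figure D1:**
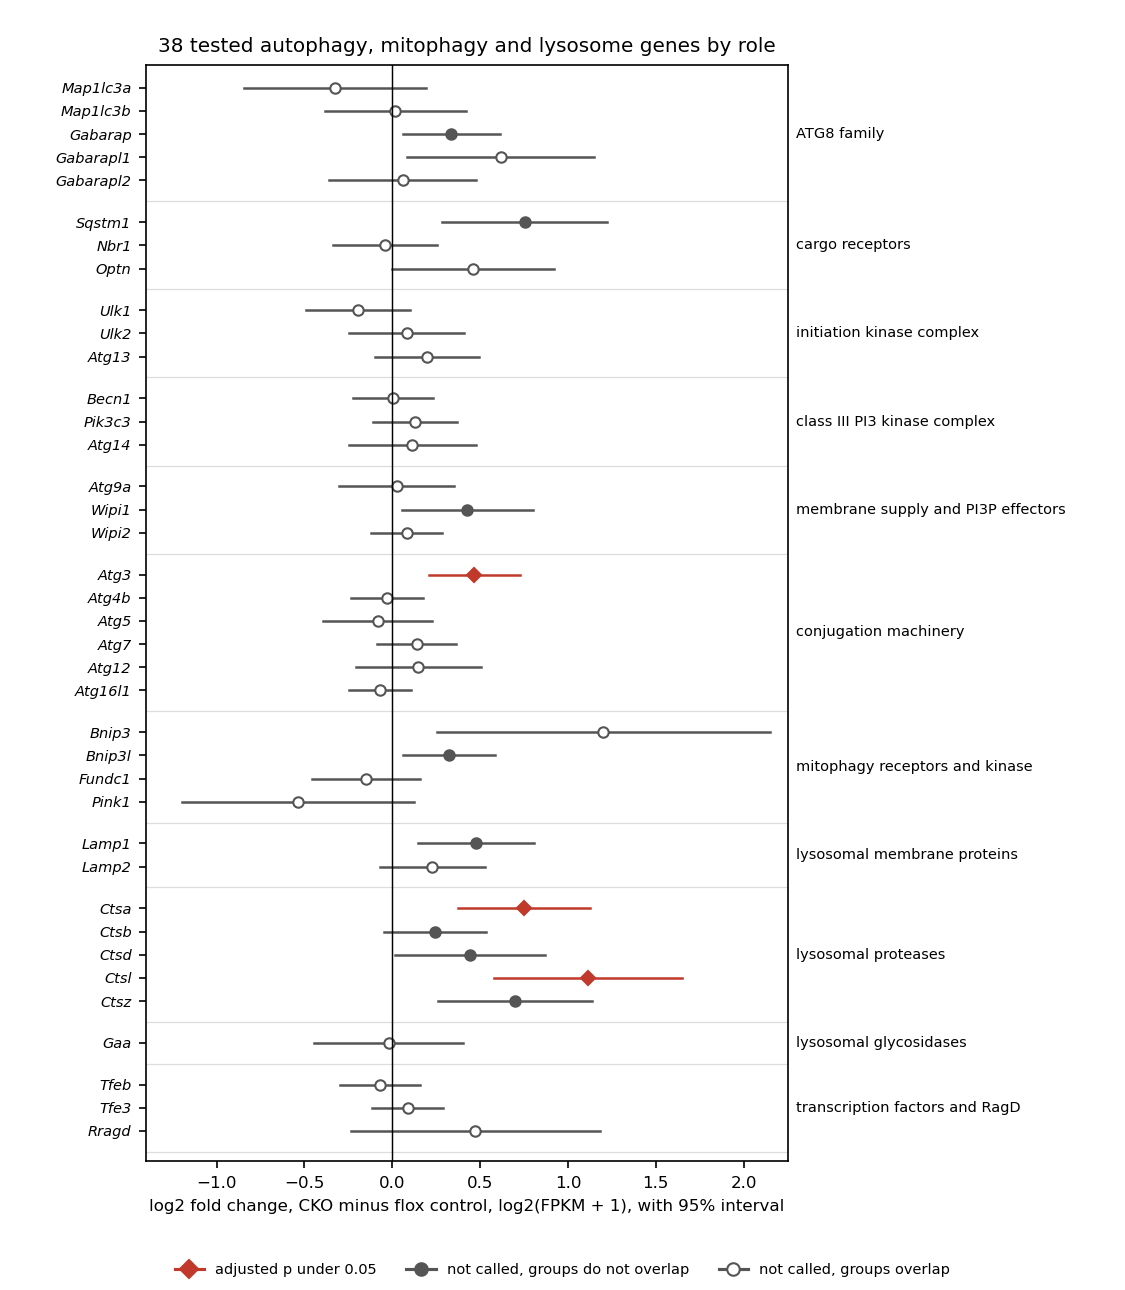
Log2 fold change of each tested gene (CKO minus flox control, log2(FPKM + 1)) with its 95% interval, grouped by role. The 3 genes past the threshold are red diamonds, Atg3, Ctsa and Ctsl, and the estimates of all 5 lysosomal proteases lie to the right of 0.

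The lysosomal proteases were the group with the largest median log2 fold change among those with at least 5 tested members (0.70). All 5 had every CKO library above every control, though by a small gap in Ctsb and Ctsd, and 2 of them rose. Ctsl (ENSMUSG00000021477, GRCm38 chromosome 13, 64359337 to 64370890, minus strand) measured 51.9, 44.0 and 81.6 FPKM in CKO 1, 2 and 3, against 26.0, 28.1 and 23.6 FPKM in flox controls 1, 2 and 3, from 2853 to 9591 reads in each library. CKO 3 stood above the other CKO libraries, and the groups did not overlap. The means were 59.2 ± 19.8 FPKM in CKO and 25.9 ± 2.24 FPKM in flox controls (SD, n = 3 each), a ratio of 2.28, with a log2 fold change of 1.11 (SE 0.22, limma adjusted p = 0.028). That call held without each CKO library in turn (limma adjusted p = 0.0356, 0.0321 and 0.0338 without CKO 1, 2 and 3) and was lost without flox control 1 (0.101), 2 (0.0726) or 3 (0.094).

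Ctsa (ENSMUSG00000017760, GRCm38 chromosome 2, 164832873 to 164841032, plus strand) reached 44.2, 51.2 and 65.1 FPKM in CKO 1, 2 and 3, against 32.1, 33.1 and 28.1 FPKM in flox controls 1, 2 and 3. The lowest CKO library was above the highest control. The log2 fold change was 0.75 (SE 0.16, limma adjusted p = 0.0312), and the ratio of means was 1.72. It held without CKO 1 (limma adjusted p = 0.017) and was lost without CKO 2 (0.075), CKO 3 (0.0594) or flox control 1, 2 or 3 (0.105, 0.0762 and 0.104). Exons of Ctsa overlap those of Pltp and Neurl2 on the opposite strand by 495 and 324 bases, and strand marking is not described in the labels, so reads there cannot be assigned with certainty. Neurl2 averaged 24.0 ± 4.37 FPKM in CKO and 16.8 ± 0.933 FPKM in flox controls (limma adjusted p = 0.084), and Pltp 8.30 ± 5.99 FPKM in CKO and 13.2 ± 0.517 FPKM in flox controls (limma adjusted p = 0.24; SD, n = 3 each).

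The other 3 proteases did not pass. Ctsz, the gene of the carboxypeptidase cathepsin Z, measured 57.8, 39.4 and 43.4 FPKM in CKO 1, 2 and 3, against 24.1, 33.9 and 27.2 FPKM in flox controls (log2 fold change 0.70, SE 0.18, limma adjusted p = 0.0582). Ctsd, which encodes the aspartic protease cathepsin D, measured 212, 161 and 238 FPKM in CKO 1, 2 and 3, against 158, 157 and 129 FPKM in flox controls (log2 fold change 0.44, limma adjusted p = 0.164). In Ctsd the gap between the lowest CKO and the highest control library was small, and CKO 2 was close to the controls. Ctsb, the cathepsin B gene, had a mean of 93.1 ± 3.34 FPKM in CKO and 78.9 ± 9.88 FPKM in flox controls (SD, n = 3 each; limma adjusted p = 0.252). Its lowest CKO library, CKO 2 (89.26 FPKM), was barely above its highest control, flox control 2 (88.97 FPKM).

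**Figure D2:**
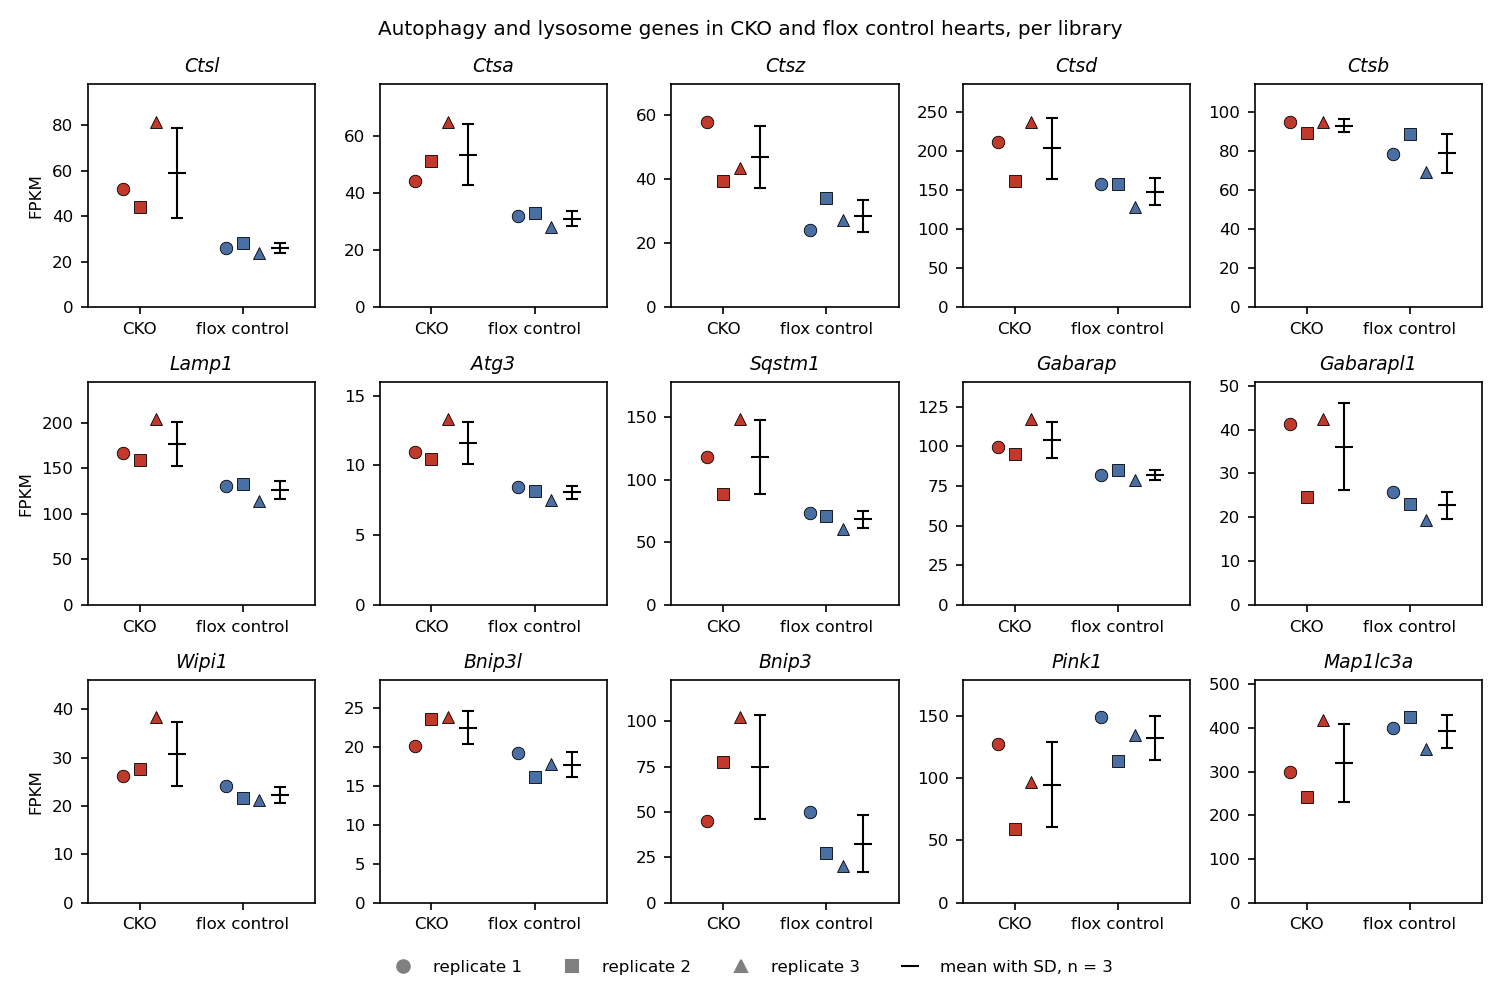
FPKM of 15 of the 39 genes in each library (circle, square and triangle for replicates 1, 2 and 3), with the mean and SD of each group, CKO in red and flox control in blue. CKO 3 is the highest library for Ctsl, Ctsa, Atg3 and Sqstm1, and the groups overlap for Gabarapl1, Bnip3, Pink1 and Map1lc3a.

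Lysosomal membrane and glycosidase genes did not pass. Lamp1, which encodes an abundant glycoprotein of the lysosomal membrane, measured 167, 159 and 204 FPKM in CKO 1, 2 and 3, against 130, 133 and 115 FPKM in flox controls (log2 fold change 0.48, SE 0.14, limma adjusted p = 0.0738). Its groups did not overlap, and its promoter is the one with 4 E-boxes shown above. Lamp2, whose product is needed for fusion of autophagosomes in heart and is lost in Danon disease, measured 25.1, 19.4 and 21.2 FPKM in CKO 1, 2 and 3, against 20.7, 17.5 and 17.4 FPKM in flox controls (limma adjusted p = 0.29). Gaa, the acid alpha-glucosidase gene mutated in Pompe disease, measured 26.3, 16.8 and 19.6 FPKM in CKO 1, 2 and 3, against 24.0, 20.3 and 18.6 FPKM in flox controls (log2 fold change -0.02, 95% interval -0.44 to 0.40, limma adjusted p = 0.956). The Gaa groups overlapped. Gla, the alpha-galactosidase A gene and the holder of 2 CLEAR matches, was the 1 member below the filter, with 1.28, 1.149 and 0.744 FPKM in CKO 1, 2 and 3 and 0.507, 0.942 and 0.906 FPKM in flox controls.

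Summed over the 9 lysosomal members, the level was 681, 581 and 768 FPKM in CKO 1, 2 and 3, against 495, 513 and 429 FPKM in flox controls 1, 2 and 3, with no overlap. The most abundant of the 9 were Ctsd, Lamp1 and Ctsb, none of which was called, so the sum does not describe each gene. Macrophages are rich in lysosomes, and the 20 macrophage and monocyte markers summed to 991, 218 and 150 FPKM in CKO 1, 2 and 3, against 239, 345 and 178 FPKM in flox controls. That sum was high in CKO 1 alone, where Lyz2 reached 472 FPKM, against 36.2 to 102 FPKM in the other libraries. The marker sum was lowest in CKO 3. Among the CKO libraries, Ctsl, Ctsa, Ctsd and Lamp1 were highest in CKO 3, and Ctsz, Ctsb, Lamp2, Gaa and Gla were highest in CKO 1. Among lysosomal members, the median log2 fold change was 0.70 over the 5 proteases and 0.35 over Lamp1 and Lamp2, and Gaa had -0.02. Of the 16 macrophage markers tested, 15 had positive log2 fold changes and 1 a negative one, with a median of 0.22, against 0.14 over all 38 tested members. None of the 16 passed with limma on log2(FPKM + 1), at an unadjusted p under 0.05 or with limma voom, and none of the 20 was at 0 in every library. The marker with the smallest adjusted p was Lyve1, with 6.06 ± 1.92 FPKM in CKO and 3.76 ± 1.29 FPKM in flox controls (SD, n = 3 each; limma adjusted p = 0.228). As given above, Ctsl kept its call without each CKO library in turn, and Ctsa kept its call without CKO 1 but not without CKO 2 or CKO 3. Fibroblast markers summed to 826, 1038 and 692 FPKM in CKO 1, 2 and 3, against 612, 643 and 791 FPKM in flox controls. Of the 10 fibroblast markers, 7 had positive log2 fold changes (median 0.14), 5 had every CKO library above every control and 0 below, 4 were higher and 0 lower at an unadjusted limma p under 0.05, and 1 rose (Tcf21, with 18.6 ± 5.02 FPKM in CKO and 6.89 ± 0.913 FPKM in flox controls, SD, n = 3 each; limma adjusted p = 0.0147). Cardiomyocyte markers summed to 15571, 17461 and 21433 FPKM in CKO 1, 2 and 3, against 20873, 24153 and 19574 FPKM in flox controls. Of the 10 cardiomyocyte markers, 8 had negative log2 fold changes (median -0.28), 2 had every CKO library below every control, 2 were lower with limma voom, and 1 fell (Tnni3, limma adjusted p = 0.0314). Endothelial markers summed to 372, 506 and 430 FPKM in CKO 1, 2 and 3, against 466, 476 and 440 FPKM in flox controls, with 6 of 10 log2 fold changes negative (median -0.13), 1 marker higher (Vwf, limma adjusted p = 0.0206) and 1 lower (Tie1, limma adjusted p = 0.0302). The part of these cell types in the lysosomal values was not tested.

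**Figure D3:**
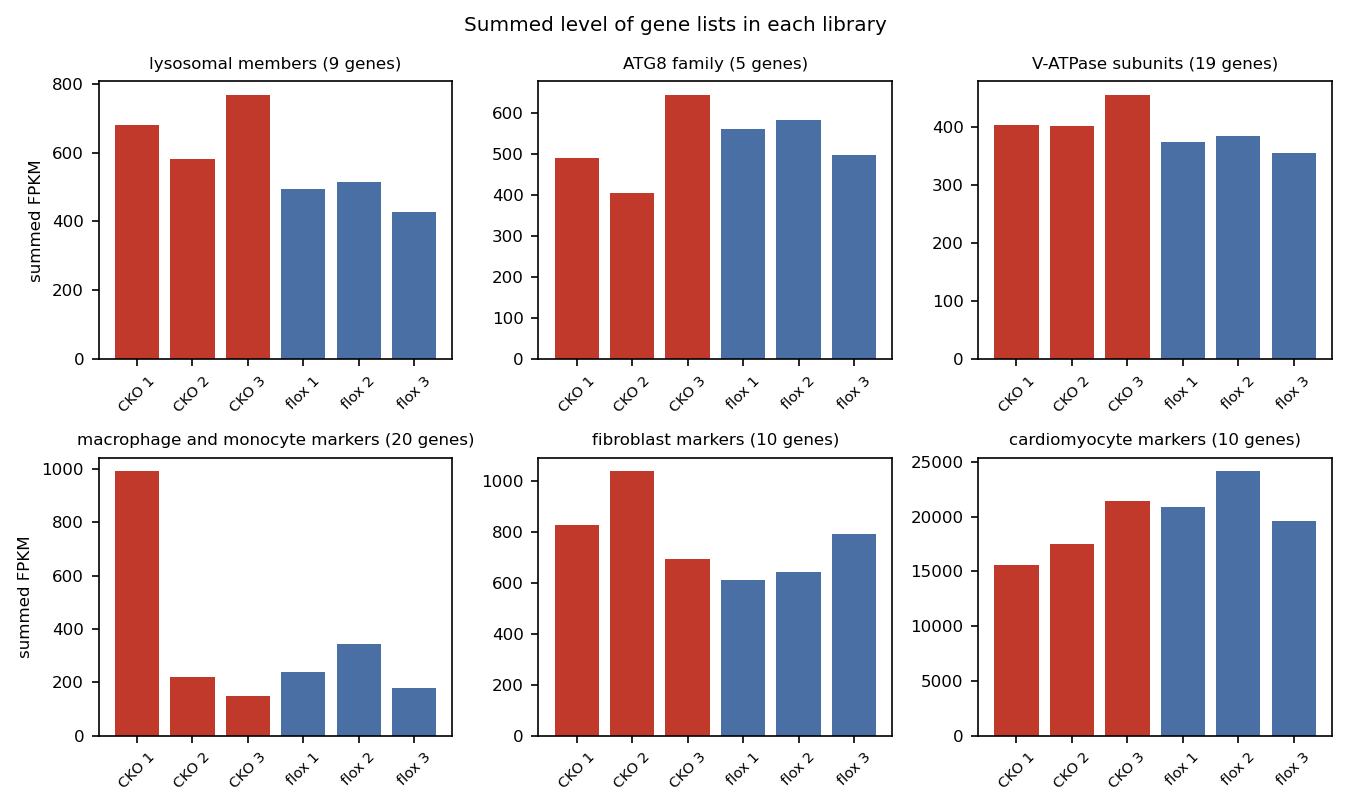
Summed FPKM of 6 gene lists in each library, CKO in red and flox control in blue, with axes starting at 0. The 3 CKO bars exceed the 3 control bars for lysosomal members and V-ATPase subunits, while macrophage markers are high in CKO 1 alone. The 43 other lysosomal hydrolases and activators are not drawn, and their sums overlapped between the groups.

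In the conjugation machinery, which attaches ATG8 proteins to membranes, 1 of 6 genes rose. Atg3 (ENSMUSG00000022663, GRCm38 chromosome 16, 45158785 to 45188538, plus strand) reached 10.97, 10.5 and 13.3 FPKM in CKO 1, 2 and 3, against 8.46, 8.20 and 7.54 FPKM in flox controls, from 451 to 760 reads per library. All CKO libraries were above all controls, with CKO 3 highest. The log2 fold change was 0.47 (SE 0.11, limma adjusted p = 0.041), and the ratio of means was 1.44. Leaving out any 1 library ended the call, with limma adjusted p between 0.0526 and 0.132. Atg7, which encodes the activating enzyme upstream of ATG3, measured 3.46, 3.19 and 3.53 FPKM in CKO 1, 2 and 3, against 3.33, 2.98 and 2.67 FPKM in flox controls (limma adjusted p = 0.384). Atg12, the gene of the ubiquitin-like protein joined to ATG5, measured 12.9, 11.3 and 12.6 FPKM in CKO 1, 2 and 3, against 13.1, 8.68 and 11.5 FPKM in flox controls (limma adjusted p = 0.577). Both genes had overlapping groups. Atg5, Atg4b and Atg16l1 had log2 fold changes of -0.08, -0.03 and -0.07, and none passed.

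The ATG8 family, whose products mark the autophagosome and hold the cargo receptors, had no member past the threshold. Map1lc3a, an LC3 gene, had the highest control level of all 39 genes, and Gabarap ranked 5 in that order. Gabarap measured 99.95, 95.2 and 117 FPKM in CKO 1, 2 and 3, against 81.8, 85.1 and 78.7 FPKM in flox controls, with no overlap (log2 fold change 0.34, SE 0.12, limma adjusted p = 0.116). Gabarapl1 measured 41.4, 24.7 and 42.3 FPKM in CKO 1, 2 and 3, against 25.7, 23.1 and 19.3 FPKM in flox controls (log2 fold change 0.62, SE 0.22, limma adjusted p = 0.129). CKO 2 lay among the controls for Gabarapl1, and without CKO 2 the gene passed (limma adjusted p = 0.0326). Map1lc3a, described here after its values were seen, measured 298, 243 and 419 FPKM in CKO 1, 2 and 3, against 400.3, 425 and 352 FPKM in flox controls (log2 fold change -0.32, limma adjusted p = 0.384). CKO 1 and CKO 2 lay below the control range and CKO 3 within it. Map1lc3b and Gabarapl2 had log2 fold changes of 0.02 and 0.06 and did not pass. Summed over the 5 genes, the level was 490, 406 and 645 FPKM in CKO 1, 2 and 3, against 562, 583 and 499 FPKM in flox controls, so the groups overlapped.

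Among cargo receptors, Sqstm1, which encodes p62, a receptor for ubiquitin-tagged cargo that is itself degraded by autophagy, came close to the threshold. Sqstm1 measured 118, 88.7 and 148 FPKM in CKO 1, 2 and 3, against 73.9, 70.7 and 61.0 FPKM in flox controls, with no overlap. The log2 fold change was 0.75 (SE 0.20, limma adjusted p = 0.0576), and the ratio of means was 1.73. It passed without CKO 2 (limma adjusted p = 0.0331) and with limma voom on recovered reads (0.0393). Its exons share 580 bases with Mrnip on the opposite strand, which averaged 0.706 FPKM over the 6 libraries. Optn, the optineurin gene, whose product acts as a receptor in mitophagy, measured 14.1, 15.0 and 20.3 FPKM in CKO 1, 2 and 3, against 11.4, 14.6 and 9.28 FPKM in flox controls (limma adjusted p = 0.184). Nbr1, a further ubiquitin-binding receptor gene, had a log2 fold change of -0.04 (95% interval -0.34 to 0.25).

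Of the 4 mitophagy genes, none passed, and their log2 fold changes were of both signs. Bnip3, which encodes a receptor of the outer mitochondrial membrane known to be induced by low oxygen, measured 45.2, 77.3 and 102 FPKM in CKO 1, 2 and 3, against 49.98, 27.4 and 20.2 FPKM in flox controls. It had the largest log2 fold change of all members (1.201, SE 0.40, limma adjusted p = 0.105), but CKO 1 lay below flox control 1. Without CKO 1 it passed (limma adjusted p = 0.0475). Bnip3l, the gene of the related receptor NIX, measured 20.05, 23.5 and 23.8 FPKM in CKO 1, 2 and 3, against 19.2, 16.1 and 17.8 FPKM in flox controls, with no overlap (log2 fold change 0.32, SE 0.11, limma adjusted p = 0.111). Pink1, the gene of the kinase that flags damaged mitochondria for Parkin, is given after its values were seen because it had the most negative log2 fold change of the members. Pink1 measured 128, 59.5 and 96.9 FPKM in CKO 1, 2 and 3, against 149, 114 and 135 FPKM in flox controls (log2 fold change -0.54, SE 0.28, limma adjusted p = 0.26). CKO 1 lay within the control range, and CKO 2 and CKO 3 below it. Fundc1, a receptor gene on the X chromosome, had a log2 fold change of -0.15 and did not pass.

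The early steps of autophagy showed small differences, none past the threshold. Of the initiation complex, Ulk1, the gene of the initiating kinase, measured 13.0, 12.8 and 15.2 FPKM in CKO 1, 2 and 3, against 18.0, 13.7 and 15.9 FPKM in flox controls (limma adjusted p = 0.36). Atg13, the gene of its adaptor, measured 15.7, 12.4 and 15.9 FPKM in CKO 1, 2 and 3, against 13.9, 12.5 and 11.5 FPKM in flox controls (limma adjusted p = 0.357). Both sets of values overlapped, and Ulk2 had a log2 fold change of 0.08. In the lipid kinase complex, Pik3c3, the catalytic subunit gene, measured 5.17, 4.57 and 5.60 FPKM in CKO 1, 2 and 3, against 4.81, 4.12 and 4.81 FPKM in flox controls (limma adjusted p = 0.448). Atg14, the gene of the subunit that directs the complex to autophagy, measured 3.40, 2.34 and 2.89 FPKM in CKO 1, 2 and 3, against 2.97, 2.002 and 2.79 FPKM in flox controls (limma adjusted p = 0.678). These values overlapped as well. Becn1, the Beclin 1 gene, averaged 7.15 ± 0.709 FPKM in CKO and 7.11 ± 0.422 FPKM in flox controls (SD, n = 3 each), and the 95% interval of its log2 fold change ran from -0.22 to 0.23.

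Of the genes for membrane supply and for proteins that bind the lipid mark, Wipi1 was the one without overlap. Wipi1 measured 26.2, 27.7 and 38.4 FPKM in CKO 1, 2 and 3, against 24.3, 21.6 and 21.2 FPKM in flox controls (log2 fold change 0.43, SE 0.16, limma adjusted p = 0.134). Wipi2, its paralog in the same step, measured 5.63, 4.90 and 5.50 FPKM in CKO 1, 2 and 3, against 5.27, 4.74 and 4.96 FPKM in flox controls (limma adjusted p = 0.589). Atg9a, the gene of a lipid scramblase carried by donor vesicles, had a log2 fold change of 0.03.

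The transcription factor genes of the pathway did not pass. Tfe3 measured 3.30, 3.07 and 2.81 FPKM in CKO 1, 2 and 3, against 2.80, 2.85 and 2.81 FPKM in flox controls (limma adjusted p = 0.559). Tfeb averaged 6.86 ± 0.573 FPKM in CKO and 7.25 ± 0.591 FPKM in flox controls (SD, n = 3 each; 95% interval of the log2 fold change -0.30 to 0.16). These are RNA levels, and both factors are known to be controlled by phosphorylation and by their place in the cell, which were not measured here. Rragd, which encodes the small GTPase RagD of the lysosomal surface, measured 36.3, 16.8 and 26.9 FPKM in CKO 1, 2 and 3, against 24.3, 16.01 and 15.1 FPKM in flox controls (log2 fold change 0.47, limma adjusted p = 0.354). CKO 2 lay among the controls for Rragd.

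Across the 39 genes, CKO 3 was the highest CKO library for 24 and CKO 2 the lowest for 26, in the same order as their FPKM sums over all genes. Mitochondrially encoded genes took 14.4% of reads in CKO 2, against 18.4% to 21.02% in the other 5 libraries, and the part of this in the member values was not tested. Among controls, flox control 1 was the highest for 25 and flox control 3 the lowest for 24. When every library was rescaled to the same FPKM sum, 8 of the 38 tested members were called higher and 0 lower, against 4.65% higher and 3.49% lower over all tested genes, whose median log2 fold change was then 0.05. Those 8 were Ctsl (limma adjusted p = 0.0064), Sqstm1 (0.0117), Ctsa (0.0204), Gabarapl1 (0.0378), Lamp1 (0.0385), Atg3 (0.0388), Ctsz (0.0449) and Ctsd (0.0485). The other alternatives called between 0 and 5 members higher, and none of the 13 called a member lower.

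**Figure D4:**
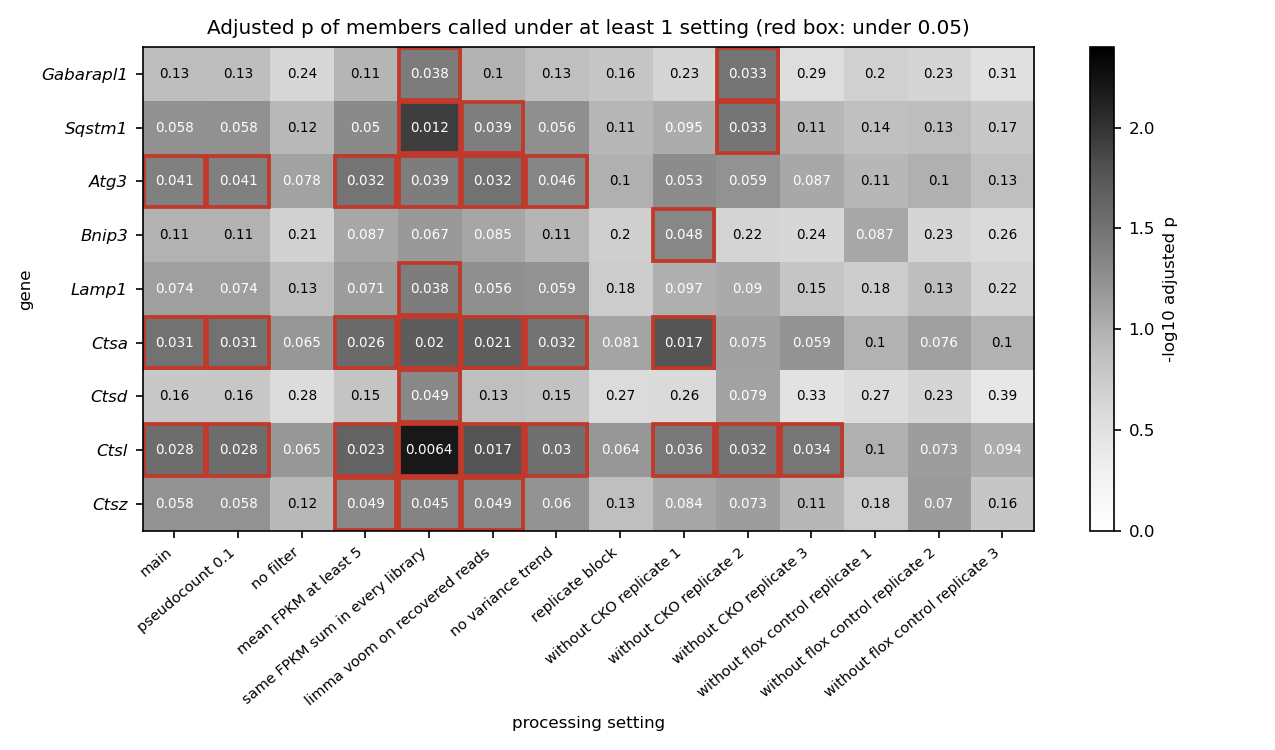
Adjusted p of the 9 genes called under at least 1 processing setting (rows), with 1 column per setting and red boxes where the value is under 0.05. Ctsl has the most red boxes, and no gene has one without flox control 1, 2 or 3, with no filter or with the replicate block.

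Related genes outside the 39 were described by 8 lists of related function. In the lysosome, 5 of 41 other hydrolases and activators rose, 0 fell and 36 did not pass. That is 12.2% higher, against 5.69% called higher and 5.49% called lower over all tested genes. Ctsk, the gene of the collagen-cleaving protease cathepsin K, measured 14.4, 13.9 and 20.1 FPKM in CKO 1, 2 and 3, against 6.22, 6.59 and 7.30 FPKM in flox controls (log2 fold change 1.14, SE 0.15, limma adjusted p = 0.00909). Fuca1, an alpha-fucosidase gene, averaged 13.0 ± 1.31 FPKM in CKO and 7.94 ± 0.626 FPKM in flox controls (SD, n = 3 each; limma adjusted p = 0.0147). In both genes all CKO libraries were above all controls. Summed over the 43 genes of this list, CKO 1, 2 and 3 held 1093, 717 and 832 FPKM. Flox controls 1, 2 and 3 held 804, 835 and 684 FPKM, so the groups overlapped. Called genes of this list numbered 4, 4 and 3 without CKO 1, 2 and 3, and 1, 4 and 2 without flox control 1, 2 and 3.

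Of 27 other lysosomal membrane and trafficking genes, 6 rose, 2 fell and 19 did not pass. Those are 22.2% higher and 7.41% lower, against 5.69% and 5.49% over all tested genes. Summed over the 28 genes of this list, CKO 1, 2 and 3 held 611, 515 and 551 FPKM. Flox controls 1, 2 and 3 held 467, 498 and 447 FPKM, with no overlap. Cd63, which encodes a tetraspanin of late endosomes and lysosomes, measured 40.1, 39.2 and 40.5 FPKM in CKO 1, 2 and 3, against 23.1, 23.9 and 23.2 FPKM in flox controls (log2 fold change 0.75, SE 0.08, limma adjusted p = 0.00607). The spread within each group was small beside the difference. Grn, the gene of progranulin, a precursor of lysosomal granulins, measured 108, 85.3 and 111 FPKM in CKO 1, 2 and 3, against 48.7, 52.4 and 40.9 FPKM in flox controls (log2 fold change 1.08, SE 0.15, limma adjusted p = 0.0101). Ostm1, a partner of the lysosomal chloride transporter CLC-7, averaged 5.34 ± 0.331 FPKM in CKO and 3.12 ± 0.257 FPKM in flox controls (SD, n = 3 each; limma adjusted p = 0.0102). Npc1, a cholesterol export gene, was one of the 2 that fell (log2 fold change -0.48, limma adjusted p = 0.0441), while Npc2, its soluble partner, rose (0.62, limma adjusted p = 0.018); this pair was picked after the values were seen. Called genes numbered 6, 7 and 4 without CKO 1, 2 and 3, and 2, 3 and 3 without flox control 1, 2 and 3.

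The V-ATPase, the proton pump that acidifies the lysosome, had 2 of 19 subunit genes higher, 0 lower and 17 not past the threshold. Its median log2 fold change was 0.22, with 16 positive and 3 negative values. Atp6v1h measured 4.52, 4.58 and 5.37 FPKM in CKO 1, 2 and 3, against 2.81, 3.04 and 2.58 FPKM in flox controls (limma adjusted p = 0.0137). Atp6v0e2 measured 3.79, 3.52 and 3.78 FPKM in CKO 1, 2 and 3, against 2.29, 2.37 and 2.36 FPKM in flox controls (limma adjusted p = 0.0139). The 2 calls were 10.5%, against 5.69% called higher over all tested genes, where 5.49% were called lower. In all, 8 of the 19 genes (42.1%) had every CKO library above every control, against 16.9% over all tested genes. None had every CKO library below, against 17.4% over all tested genes. Called genes numbered 3, 2 and 1 without CKO 1, 2 and 3, and 0, 2 and 0 without flox control 1, 2 and 3.

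Of 20 genes that move autophagosomes and fuse them with lysosomes, 3 rose, 3 fell and 14 did not pass (15.0% each way, against 5.69% called higher and 5.49% called lower over all tested genes). Fyco1, which encodes an adaptor linking autophagosomes to kinesin, fell to 19.3, 15.7 and 19.3 FPKM in CKO 1, 2 and 3, against 38.4, 32.2 and 31.0 FPKM in flox controls (log2 fold change -0.87, SE 0.13, limma adjusted p = 0.0118). Vamp8, a fusion SNARE gene, measured 23.5, 20.9 and 28.4 FPKM in CKO 1, 2 and 3, against 12.2, 14.7 and 12.3 FPKM in flox controls (log2 fold change 0.84, SE 0.14, limma adjusted p = 0.0152). Vps11, the gene of a tethering complex subunit, averaged 8.62 ± 0.495 FPKM in CKO and 5.89 ± 0.559 FPKM in flox controls (SD, n = 3 each; limma adjusted p = 0.0243). The number of called genes was 5, 2 and 2 without CKO 1, 2 and 3, 0, 2 and 2 without flox control 1, 2 and 3, 3 with no filter and 1 with the replicate block. Of 22 other autophagy machinery genes, 1 rose (4.55%, below the 5.69% over all tested genes), 0 fell and 21 did not pass. That gene, Rubcn, encodes Rubicon, a known inhibitor of the pathway, and measured 11.3, 9.24 and 10.3 FPKM in CKO 1, 2 and 3, against 7.27, 6.35 and 7.41 FPKM in flox controls (limma adjusted p = 0.0307). Of 20 genes listed with other cargo and mitophagy receptors, 1 rose (5.0%, also below 5.69%), 0 fell and 19 did not pass. It was Nipsnap3b, with 8.44 ± 0.514 FPKM in CKO and 5.35 ± 0.734 FPKM in flox controls (SD, n = 3 each; limma adjusted p = 0.0219). Whether its product acts as a receptor was not examined here. The Rubcn call was lost without CKO 1, CKO 3 or any 1 control, with no filter, with the same FPKM sum and with the replicate block. No gene of the receptor list was called with no filter or without CKO 2, CKO 3, flox control 1 or flox control 3.

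**Figure D5:**
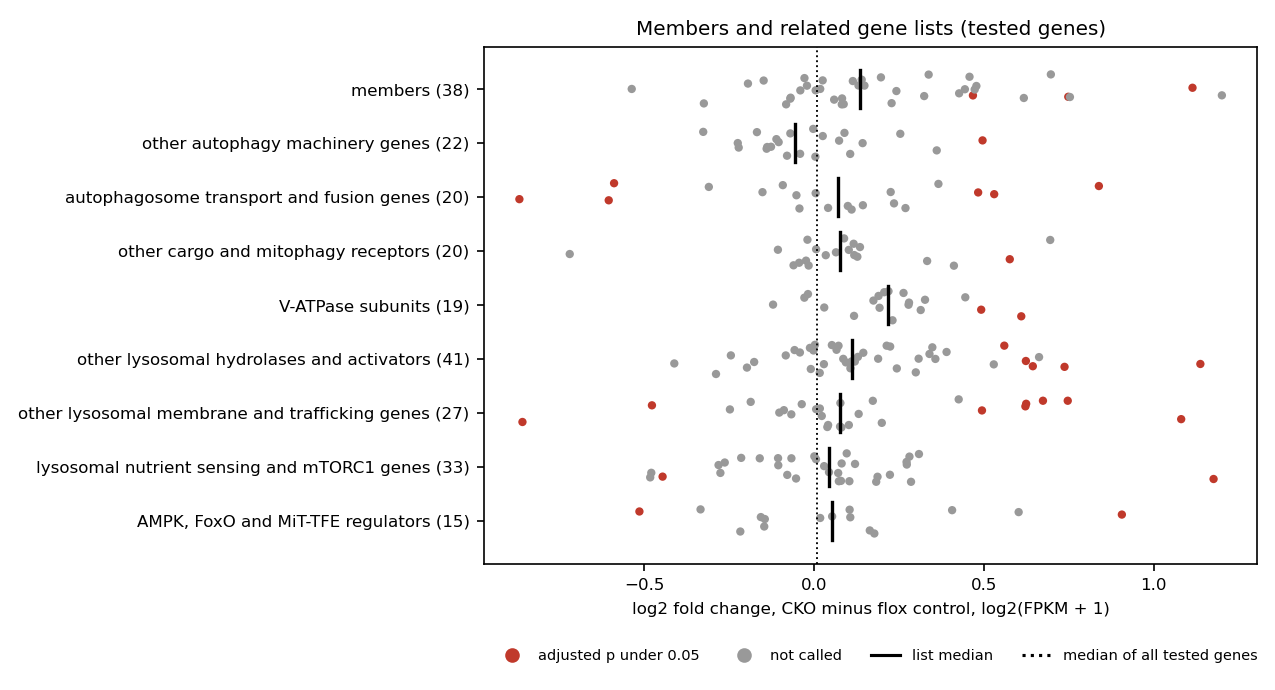
Log2 fold change (CKO minus flox control, log2(FPKM + 1)) of each tested gene in the 39-gene set and in 8 related lists, with called genes in red, list medians as bars and the median of all tested genes as a dotted line. Red points lie on both sides of 0 for transport and fusion genes and to the right of 0 for V-ATPase subunits and hydrolases.

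Of 33 nutrient sensing and mTORC1 genes, 1 rose, 1 fell and 31 did not pass (3.03% each way, below the 5.69% called higher and 5.49% called lower over all tested genes). Sesn2, which encodes the leucine sensor Sestrin2, an inhibitor of mTORC1 signaling, measured 5.10, 6.74 and 7.23 FPKM in CKO 1, 2 and 3, against 2.16, 1.74 and 2.89 FPKM in flox controls (log2 fold change 1.18, SE 0.17, limma adjusted p = 0.0107). Nprl2, a subunit gene of the GATOR1 complex, which also restrains mTORC1, fell to 4.36 ± 0.0857 FPKM in CKO, against 6.30 ± 0.299 FPKM in flox controls (SD, n = 3 each; limma adjusted p = 0.0162). Of 15 AMPK, FoxO and MiT-TFE regulators, 1 rose, 1 fell and 13 did not pass (6.67% each way, near those shares). Prkag2, the gene of an AMPK gamma subunit, measured 12.9, 12.0 and 15.2 FPKM in CKO 1, 2 and 3, against 7.03, 6.35 and 6.53 FPKM in flox controls (log2 fold change 0.91, SE 0.11, limma adjusted p = 0.00667). Prkab1, the gene of an AMPK beta subunit, measured 9.89, 9.32 and 9.67 FPKM in CKO 1, 2 and 3, against 13.5, 14.1 and 14.9 FPKM in flox controls (log2 fold change -0.51, limma adjusted p = 0.0132). The groups of all 4 genes were apart. Called genes of the nutrient sensing list numbered 3, 2 and 1 without CKO 1, 2 and 3, and 0, 1 and 1 without flox control 1, 2 and 3, and those of the AMPK list numbered 1 without flox control 1 or 3 and 2 without any other library.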

How the data were processed

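Poly-T selected heart RNA was sequenced in 6 libraries, grouped by the genotype label. The authors deposited FPKM values and gene lengths for 54532 genes; per the submitters' processing notes the build was GRCm38.p6 and the tools were DESeq2 1.20.0, featureCounts 1.5.0-p3, HISAT2 2.0.5 and CASAVA, with no step named for any value. FPKM times length gave whole multiples of the value of 1 read (tolerance 0.001) for all genes in all libraries, so reads were recovered. The 12144 genes whose mean reached 1 FPKM were tested on log2(FPKM + 1), a pseudocount of 1, with limma 3.58.1 in R 4.3.3, genotype alone in the model, a trended prior variance and Benjamini-Hochberg adjustment over all genes. The FPKM are not counts, so limma voom on recovered reads is an alternative; the 13 alternatives are listed in the closing section. Members, lists and tests were chosen with earlier results of these data known.

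Per-library values are given for called members, and for the 2 uncalled members of each role with the smallest adjusted p. Other members are given by fold change or group mean, with a few said to be picked after their values were seen; each related list is shown by its 3 called genes of smallest adjusted p, or fewer, plus the pair named as picked later. One such gene is not reported here. Overlaps use GENCODE M21 exons and promoters are from RefSeq. Further work used Python 3.11.15, pandas 2.3.3, scipy 1.17.1 and matplotlib 3.10.9. The procedure was tested on simulated counts with the same dispersion for all genes. Simulated libraries differed only in depth and planted changes, so that test does not cover the differences between libraries described above. Reads per library limit precision as counting error only; animals per group limit it further.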

Additional observations from a re-analysis of the deposited data

How the results depend on the processing

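The 13 alternatives were pseudocount 0.1, no filter on low values, a mean of at least 5 FPKM, the same FPKM sum in every library, limma voom on recovered reads, no variance trend, the replicate number as a block, and each of the 6 libraries left out. Genes called over the whole table numbered 1358, and 798 with no filter, 989 with the same FPKM sum, 1508 with limma voom, 715 with the replicate block and 315 to 1490 without 1 library. Members called higher numbered 3, and 0 with no filter, 8 with the same FPKM sum, 5 with limma voom, 0 with the replicate block and 0 to 3 without 1 library; none was called lower under any alternative. The log2 fold change of Ythdc1 was -0.54, and lost its call with the same FPKM sum (-0.50, limma adjusted p = 0.0888) and the replicate block (-0.54, 0.0542); without 1 library it ran from -0.60 to -0.50. Deviations of same-numbered CKO and flox control libraries correlated at 0.139, 0.0597 and -0.00548 for numbers 1, 2 and 3. These values show no sign of pairing by number, but with 3 libraries per group they cannot exclude it.

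Of the 38 tested members, 9 had log2 fold changes near 0 that changed sign. With the same FPKM sum Nbr1 was 0.0097, Atg4b 0.0176 and Gaa 0.0296, and with limma voom Becn1 was -0.0042. Without 1 library the ranges were -0.12 to 0.20 for Map1lc3b, -0.14 to 0.16 for Gabarapl2, -0.102 to 0.0573 for Nbr1, -0.0639 to 0.0564 for Becn1, -0.0087 to 0.22 for Atg14, -0.0578 to 0.152 for Atg9a, -0.0812 to 0.0221 for Atg4b, -0.0045 to 0.27 for Atg12 and -0.19 to 0.12 for Gaa. The cause was not tested. Among the related lists, called hydrolases numbered 5, and 3 with no filter and 2 with the replicate block, and called lysosomal membrane genes numbered 8, and 4 with either. V-ATPase calls numbered 0 at a mean of at least 5 FPKM, where both called subunits are left out, and 1 with the replicate block. The nutrient sensing and AMPK lists each had 1 called gene, in place of 2, with the same FPKM sum and with the replicate block.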
